A study of Mus musculus with 12 samples.

Results

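The 50 genes described here act in mitosis, the separation of copied chromosomes into 2 daughter cells. They were taken from a named list of genes of G2 phase and mitosis, and all 50 were found among the 56748 gene IDs of the count tables and passed the filter on low counts that left 16016 genes for testing. RNA was sequenced from natural killer (NK) cells, innate lymphocytes that kill transformed cells, sorted from lymph nodes of mice. There were 12 libraries, 4 in each of 3 groups. The hematogenous group came from tumor-bearing nodes of a mouse model of diffuse large B cell lymphoma in which the tumor spread through blood vessels. The lymphatic group came from tumor-bearing nodes of the model in which it spread through the lymphatic system, and the tumor-free group from nodes of C57BL/6J mice without tumor. The design asks how NK cells of nodes reached by either route differ from those of tumor-free nodes. The labels give no lymphoma line, no transgene, no age and no sorting markers. Samples carry numbers 1 to 4 within a group, with no word on separate animals, so the spread behind each p-value is that of these samples and may be technical only.

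A resting lymphocyte holds little mRNA of mitosis genes. When it enters the cell cycle, cyclin-dependent kinase 1 with cyclins A and B drives entry into mitosis, condensin compacts the chromosomes, and kinetochores, built on the centromeres, attach them to spindle microtubules. The spindle checkpoint holds the anaphase-promoting complex (APC/C) in check until all are attached, after which the sister chromatids part and cytokinesis divides the cell. Most of these genes are transcribed late in the cycle through 2 promoter elements. One is the cell cycle genes homology region (CHR), bound by the MuvB complex together with B-MYB and FOXM1 in cycling cells and with p130 and E2F4, as the DREAM repressor, in resting ones. The other is the CCAAT box, bound by NF-Y. NK cells divide in response to interleukin-15 and interleukin-2, and their cytotoxic and dividing states can overlap.

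These elements were looked for in RefSeq promoter windows of build GRCm38.p6, which run from 250 bases before to 50 bases after the gene start. Only the first window listed for a gene was used, so other starts of the same gene were not searched. The CHR was searched as TTTGAA or TTCGAA and the CCAAT box as CCAAT, on both strands. A window was in the table for 42 of the 50 genes, all but Aurkb, Incenp, Ccna2, Tpx2, Dlgap5, Kif20a, Spc24 and Smc4. A CHR match was in 34 of 42 (81.0%) and in 19.3% of the 26983 other promoters of the table. A CCAAT match was in 31 of 42 (73.8%) against 37.9%, and both together in 28 of 42 (66.7%) against 7.61%. At least 2 CCAAT matches stood in 22 of 42 (52.4%), against 12.1% of the other promoters. A core of the E2F site, TTCCCGC or TTGGCGC, was in 8 of 42 (19.0%) against 6.92%, and it can overlap a CCAAT match read on the other strand. Windows of Nusap1, Nuf2, Birc5, Mad2l1 and Ncaph held neither a CHR nor a CCAAT match. Such a match describes letters in a window and not a bound site. Shown here are the windows of the 8 genes whose calls, in at least 1 comparison, held under every alternative and without any single library. They run from 190 bases before to 40 bases after the gene start, 5′ to 3′ on the strand of the gene. Capitals mark CHR and CCAAT matches, which read TTCAAA and ATTGG where they lie on the other strand.
Cenpa (GRCm38.p6, chr5:30666696-30666925, plus strand): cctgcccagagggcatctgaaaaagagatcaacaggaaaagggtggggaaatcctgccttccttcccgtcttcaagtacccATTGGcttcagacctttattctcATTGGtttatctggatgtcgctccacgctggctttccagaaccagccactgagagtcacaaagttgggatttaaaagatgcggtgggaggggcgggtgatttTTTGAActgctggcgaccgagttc
Nuf2 (GRCm38.p6, chr1:169531425-169531654, minus strand): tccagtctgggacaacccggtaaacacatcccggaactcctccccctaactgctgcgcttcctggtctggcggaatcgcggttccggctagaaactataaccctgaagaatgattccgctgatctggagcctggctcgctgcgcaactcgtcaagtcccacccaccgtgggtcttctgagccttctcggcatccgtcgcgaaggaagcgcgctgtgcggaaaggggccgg
Kif11 (GRCm38.p6, chr19:37376192-37376421, plus strand): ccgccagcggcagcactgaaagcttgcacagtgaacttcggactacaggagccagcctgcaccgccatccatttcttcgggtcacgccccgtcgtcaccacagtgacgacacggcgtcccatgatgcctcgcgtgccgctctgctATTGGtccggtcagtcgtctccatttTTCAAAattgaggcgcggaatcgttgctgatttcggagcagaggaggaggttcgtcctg
Racgap1 (GRCm38.p6, chr15:99651617-99651846, minus strand): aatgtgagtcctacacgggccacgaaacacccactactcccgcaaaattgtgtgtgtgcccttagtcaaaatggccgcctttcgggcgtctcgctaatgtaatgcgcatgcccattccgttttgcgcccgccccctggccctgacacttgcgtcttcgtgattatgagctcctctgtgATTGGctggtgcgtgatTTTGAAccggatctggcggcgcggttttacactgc
Mki67 (GRCm38.p6, chr7:135716340-135716569, minus strand): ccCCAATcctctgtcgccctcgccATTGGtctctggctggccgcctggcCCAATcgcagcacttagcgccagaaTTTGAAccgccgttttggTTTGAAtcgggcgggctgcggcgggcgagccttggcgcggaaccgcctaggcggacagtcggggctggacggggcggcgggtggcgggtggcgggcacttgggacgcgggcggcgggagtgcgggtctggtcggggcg
Top2a (GRCm38.p6, chr11:99024150-99024379, minus strand): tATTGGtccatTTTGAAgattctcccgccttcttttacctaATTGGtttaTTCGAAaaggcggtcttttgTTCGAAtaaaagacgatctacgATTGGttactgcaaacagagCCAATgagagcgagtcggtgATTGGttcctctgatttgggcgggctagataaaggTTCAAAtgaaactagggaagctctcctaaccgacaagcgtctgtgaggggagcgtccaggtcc
Smc2 (GRCm38.p6, chr4:52439031-52439260, plus strand): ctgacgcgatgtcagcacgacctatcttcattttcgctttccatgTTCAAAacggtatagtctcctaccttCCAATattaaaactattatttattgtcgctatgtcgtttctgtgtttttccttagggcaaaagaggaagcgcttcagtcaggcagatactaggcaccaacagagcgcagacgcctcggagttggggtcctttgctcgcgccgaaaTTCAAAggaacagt
Ncapd2 (GRCm38.p6, chr6:125191547-125191776, minus strand): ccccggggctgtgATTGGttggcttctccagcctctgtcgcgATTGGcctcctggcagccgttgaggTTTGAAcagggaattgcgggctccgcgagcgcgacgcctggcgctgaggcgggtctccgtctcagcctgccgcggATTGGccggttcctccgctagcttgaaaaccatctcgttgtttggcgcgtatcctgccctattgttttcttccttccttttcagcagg
Nuf2 (kinetochore) held neither match. Kif11 (spindle motor) and Racgap1 (central spindle) each held 1 CHR and 1 CCAAT match, Cenpa (centromere) 1 and 2, Ncapd2 (condensin) 1 and 3, Smc2 (condensin) 2 and 1, Mki67 (chromosome surface) 2 and 3, and Top2a (DNA topoisomerase) 4 and 5.

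Levels are given as CPM, gene counts scaled to library size with TMM factors, and per-library values run from replicate 1 to replicate 4. Libraries held 6654215 to 43494812 gene counts, with 3 of the 4 tumor-free libraries at the low end. Depth thus differed by group, at 17672832 to 43494812 in lymphatic, 10087837 to 19625766 in hematogenous and 6654215 to 23674960 in tumor-free libraries. Reads assigned to genes made up 55.4% to 65.5% in hematogenous, 67.1% to 72.1% in lymphatic and 65.7% to 70.7% in tumor-free libraries, and reads outside annotated features 17.5% to 24.6%, 13.9% to 17.4% and 11.4% to 21.1% in that order. Hematogenous replicate 1 stood apart, with the lowest share in genes and the highest shares outside features and unaligned (14.6%). The 50 genes together had 5847 to 61029 counts in a library. Of the 50 genes, 26 averaged under 10 CPM over all libraries and 8 averaged over 50 CPM, and 13 had 0 counts in at least 1 library, 8 of them in tumor-free replicate 4. Per kilobase of exon, the median level was 1.96 CPM, from 0.551 for Ttk to 45.5 for Smc4. Racgap1 and Cks2 followed Smc4 at 14.4 CPM per kilobase each, then Incenp at 12.1, Bub3 at 11.7, Smc2 at 9.84, Mki67 at 9.05 and Ncapd2 at 9.03. A few of the genes thus had abundant mRNA and most had little, and the SE of a log2 fold change was larger for the low ones. For hematogenous over tumor free, its median was 0.187 for the 10 genes over 30 CPM and 0.512 for the 40 others.

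The sorted cells carried NK markers in every group, with all 12 NK genes of the marker list detected. Their summed level was 9935, 11477, 11553 and 10484 CPM in the hematogenous libraries, 13349, 16377, 13773 and 13874 CPM in the lymphatic ones and 16564, 16622, 14787 and 14782 CPM in the tumor-free ones. Ncr1, which encodes the NK receptor NKp46, averaged 645 ± 147 CPM in hematogenous, 1041 ± 119 CPM in lymphatic and 1372 ± 101 CPM in tumor-free libraries (SD, n = 4 each). It was lower in hematogenous libraries than in tumor-free ones (log2 fold change -1.09, SE 0.141, adjusted p = 7.89e-05) and than in lymphatic ones (log2 fold change -0.69, SE 0.140, adjusted p = 0.00482; edgeR quasi-likelihood test, Benjamini-Hochberg over 16016 genes, as for every adjusted p). Over the list, 9 of the 12 NK genes fell in hematogenous over tumor-free nodes, where 6.87% of tested genes fell. In hematogenous over lymphatic nodes 7 fell (5.92%), and in lymphatic over tumor-free nodes 1 fell (0.418%). There were 0 rises in these comparisons. In bulk RNA, fewer cells of a type and less RNA per cell cannot be told apart, and neither can more dividing cells and more mitosis mRNA per cell.

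Summed over the 50 genes, mitosis mRNA reached 839.7, 1046, 895 and 1061 CPM in the hematogenous libraries, 1441, 1522, 1391 and 1935 CPM in the lymphatic ones and 1089.9, 865, 859 and 877 CPM in the tumor-free ones. The 4 lymphatic libraries lay above the 8 others, whereas hematogenous and tumor-free libraries overlapped. Lymphatic replicate 4 had the highest level of any library for 33 of the 50 genes. Between 92.0% and 100% of the genes stood above their own 12-library mean in each lymphatic library, 14.0% to 44.0% in each hematogenous library and 20.0% to 56.0% in each tumor-free library. The 3 genes of highest CPM made up 37.4% of the sum, so it is weighted to Smc4, Racgap1 and Mki67.

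**Figure D1:**
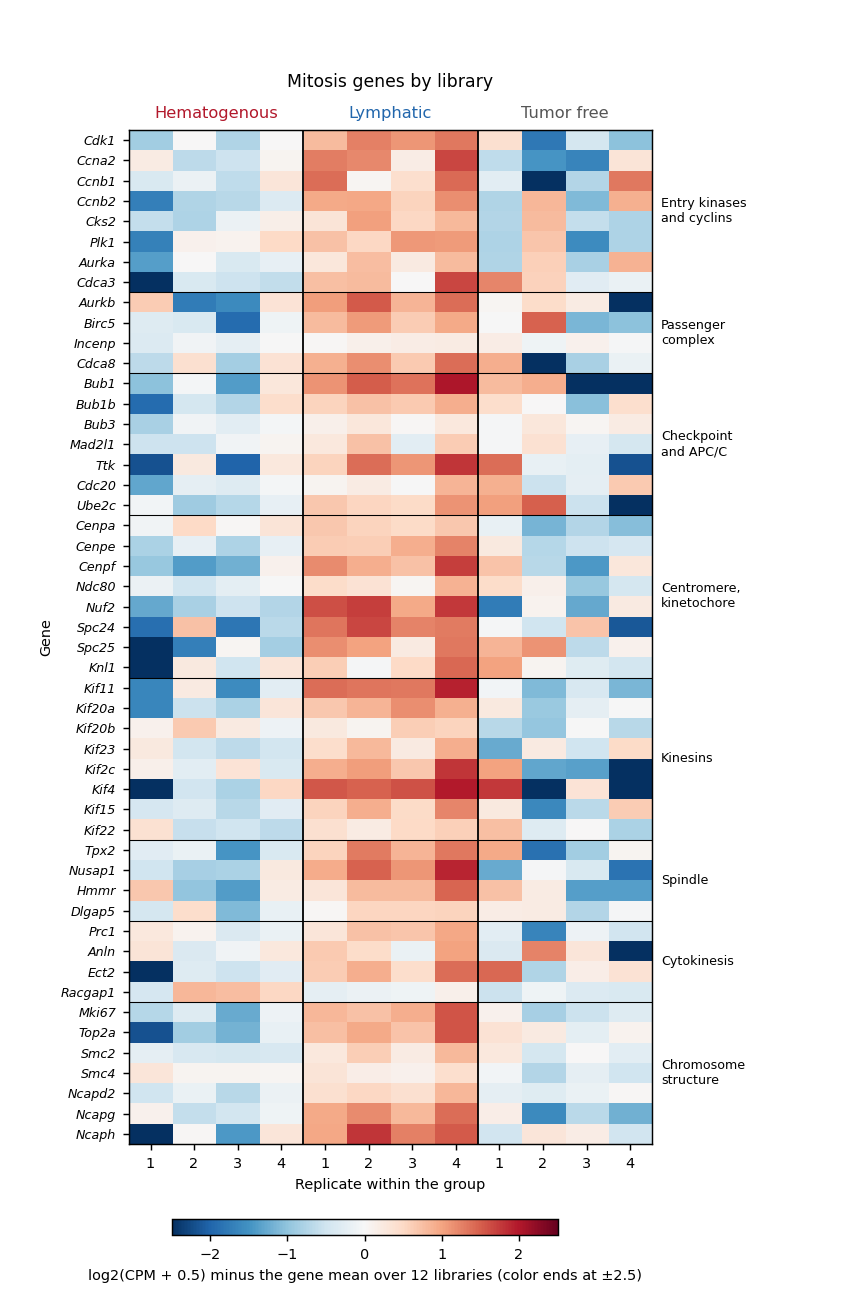
Heat map of the 50 mitosis genes (rows, by role) in 12 libraries (columns, replicates 1 to 4 of the hematogenous, lymphatic and tumor-free groups). Color is log2(CPM + 0.5) minus the gene's mean over the 12 libraries. The lymphatic columns are mostly red, and lymphatic replicate 4 is the highest library for 33 genes.

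In lymphatic against tumor-free nodes, 11 of the 50 genes (22.0%) rose and 0 fell, where 2.32% of the 16016 tested genes rose and 0.418% fell. The 11 were Cenpa, Mki67, Kif11, Nusap1, Smc4, Ncapd2, Ncapg, Ccna2, Kif20b, Prc1 and Cenpe. All 50 had a positive log2 fold change, with a median of 0.96 and a range of 0.01 to 2.29, beside a median of 0.08 over all tested genes. Of these, Bub3 and Cdc20 turned negative under scaling by DESeq2's size factors or by library size alone. At an unadjusted p under 0.05, 24 genes were higher and 0 lower, where 10.2% of tested genes were higher. In 20 genes all 4 lymphatic libraries lay above all 4 tumor-free ones, as they did for 7.66% of tested genes. The calls of Cenpa, Kif11 and Mki67 held under every alternative tried and without any single library. Without lymphatic replicate 4, these 3 were the only ones of the 50 called. Without lymphatic replicate 2 the count was 6, and without tumor-free replicate 2 or replicate 4 it was 7. With all libraries thinned to equal depth it was also 7.

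In hematogenous against tumor-free nodes, 4 of the 50 genes (8.00%) rose, where 9.52% of tested genes rose, and 1 (2.00%) fell, where 6.87% fell. Cenpa, Racgap1, Smc4 and Kif20b rose, and Top2a fell. The shares are below those of all genes, and the directions were mixed, with 14 positive log2 fold changes, a median of -0.22 and a range of -1.81 to 0.95. The median over all tested genes was 0.08. In 2 genes, Cenpa and Smc4, all hematogenous libraries lay above all tumor-free ones (11.5% of tested genes), and in 2, Cdca3 and Bub3, all lay below (8.01%). All 5 calls were among the 10 genes with a mean over 30 CPM. The calls of Cenpa and Racgap1 held under every alternative and without any single library, and without tumor-free replicate 2 only these 2 remained. Without tumor-free replicate 4 or hematogenous replicate 2, 3 calls were made.

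In hematogenous against lymphatic nodes, 0 of the 50 genes rose and 16 (32.0%) fell, where 2.93% of tested genes rose and 5.92% fell. Log2 fold changes were negative for 49 genes, with a median of -1.32 and a range of -2.72 to 0.59, beside a median of -0.01 over all tested genes. Scaling by library size alone moved the median of all genes to 0.10 and that of the 50 genes to -1.21. In 37 genes all hematogenous libraries lay below all lymphatic ones (11.3% of tested genes). The gene with a positive value was Racgap1. Nuf2, Kif11, Mki67, Top2a, Smc2 and Ncapd2 kept their calls under every alternative and without any single library. The share of reads in genes moved with this comparison, being lower in each of the 4 hematogenous libraries than in every lymphatic one, and its part in the falls was not tested. Hematogenous replicate 1, the library of the lowest share, was the lowest of all 12 for 17 of the 50 genes. Without it 11 genes were called, 10 lower and 1, Racgap1, higher. The count was 7 without lymphatic replicate 4 or hematogenous replicate 3, 8 without lymphatic replicate 2, 9 without hematogenous replicate 2 and 10 without lymphatic replicate 1. With all libraries thinned to equal depth it was 9. The 3 comparisons share their libraries in pairs and are not independent of each other. In 17 genes every lymphatic library lay above the 8 others, as in 2.12% of tested genes.

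**Figure D2:**
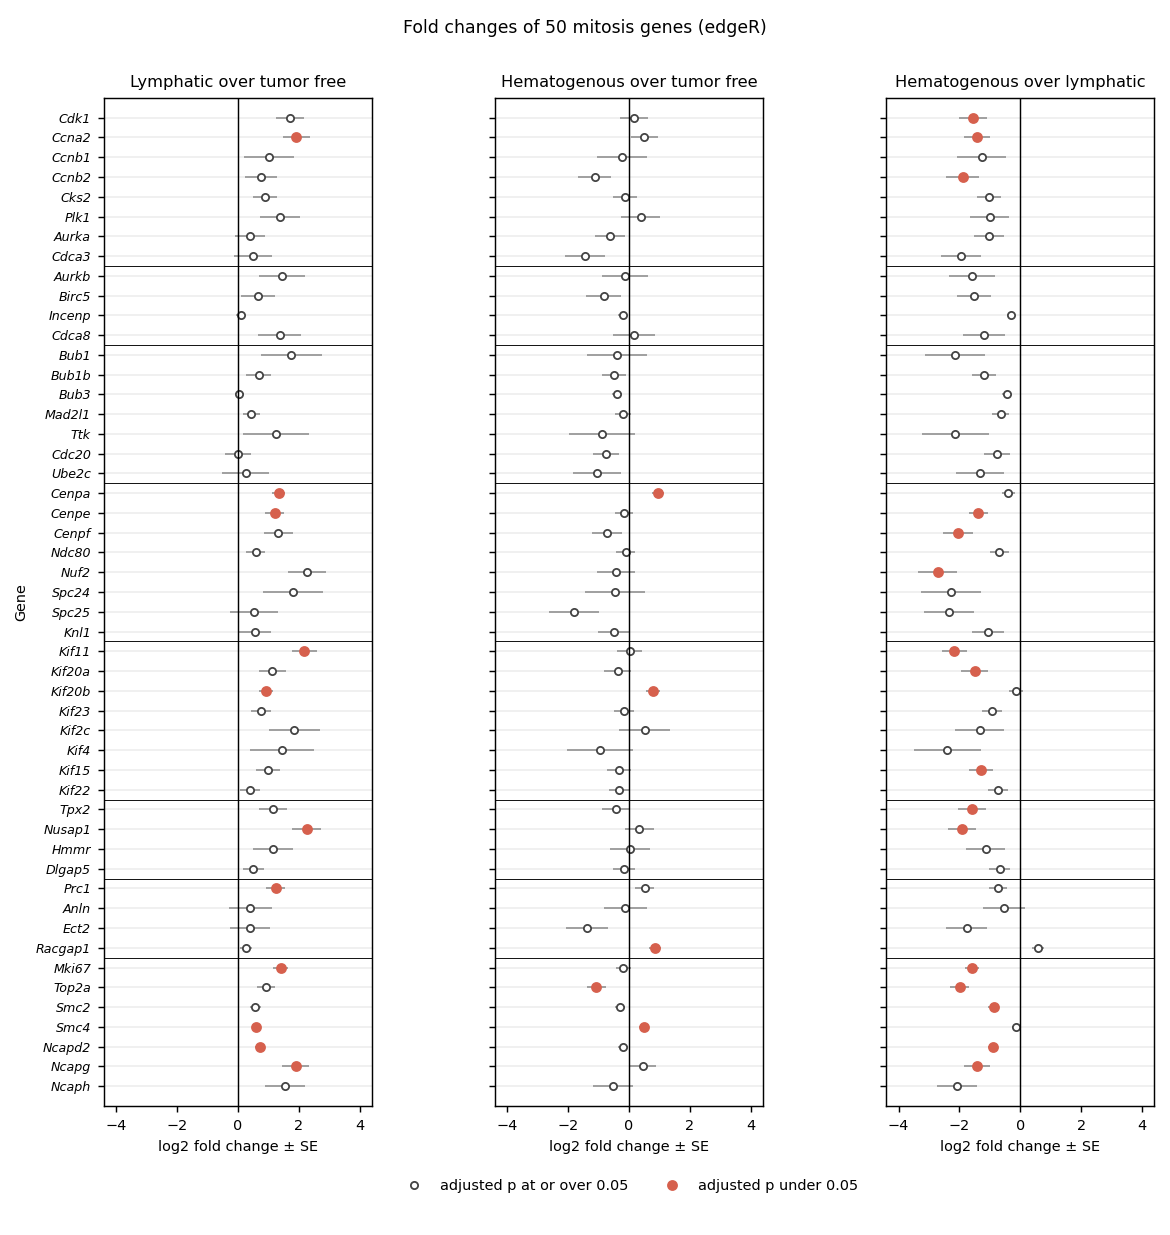
Log2 fold changes ± SE of the 50 mitosis genes (rows, by role) for lymphatic over tumor free, hematogenous over tumor free and hematogenous over lymphatic. Filled points have an edgeR adjusted p under 0.05: 11 to the right of 0 in the first panel, 4 to the right and 1 to the left in the second, and 16 to the left in the third.

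Role groups held 4 to 8 genes, too few for 1 call to be read as a result about a role. Among the kinases and cyclins of mitotic entry (8 genes), 1 rose in lymphatic over tumor-free nodes (2.32% of tested genes). In hematogenous over tumor-free nodes 0 were called, and in hematogenous over lymphatic nodes 3 fell (5.92% of tested genes). The group medians of the log2 fold change were 0.97, -0.18 and -1.35 in that order. Ccna2, cyclin A2, which works in S phase and early mitosis, had 9.55, 5.05, 5.58 and 8.69 CPM in hematogenous, 20.8, 19.7, 9.49 and 27.2 CPM in lymphatic and 5.14, 2.66, 2.30 and 10.5 CPM in tumor-free libraries. Lymphatic replicate 3 was below tumor-free replicate 4, so the groups overlapped, and the level rose in lymphatic over tumor-free nodes (log2 fold change 1.93, SE 0.452, adjusted p = 0.0216) and fell in hematogenous over lymphatic nodes (log2 fold change -1.42, SE 0.437, adjusted p = 0.0467). Cdk1, the mitotic kinase itself, had 2.93, 5.80, 3.23 and 5.84 CPM in hematogenous, 10.4, 14.5, 13.0 and 15.1 CPM in lymphatic and 7.83, 1.33, 4.13 and 2.59 CPM in tumor-free libraries. The 4 lymphatic values were above the 8 others. Its difference between lymphatic and tumor-free nodes lay just outside the threshold (log2 fold change 1.72, SE 0.469, adjusted p = 0.0546), whereas it fell in hematogenous over lymphatic nodes (log2 fold change -1.56, SE 0.463, adjusted p = 0.039), and hematogenous and tumor-free nodes were not told apart (log2 fold change 0.16, SE 0.465, adjusted p = 0.866). Ccnb2, cyclin B2, an activator of Cdk1, had 1.13, 2.67, 2.79 and 3.73 CPM in hematogenous, 9.82, 9.98, 7.37 and 11.5 CPM in lymphatic and 2.69, 9.03, 2.00 and 9.35 CPM in tumor-free libraries. The tumor-free libraries split, with replicates 2 and 4 near the lymphatic level and replicates 1 and 3 near the hematogenous one. Ccnb2 fell in hematogenous over lymphatic nodes (log2 fold change -1.90, SE 0.534, adjusted p = 0.0311). For lymphatic over tumor free, Cdk1 passed without tumor-free replicate 1 (adjusted p = 0.0126) or hematogenous replicate 1 (0.0493) and in DESeq2 (0.00621). In that comparison, the call of Ccna2 was lost without lymphatic replicate 1, 2 or 4 or tumor-free replicate 1, 2 or 3 (adjusted p up to 0.121). For hematogenous over lymphatic, that of Ccna2 was lost without any 1 of the 4 hematogenous libraries, lymphatic replicate 1, 2 or 4 or tumor-free replicate 1 (adjusted p up to 0.171), that of Cdk1 without any 1 of the 4 hematogenous libraries or any 1 of the 4 lymphatic libraries (adjusted p up to 0.149) and that of Ccnb2 without hematogenous replicate 1, 2 or 3 or lymphatic replicate 1, 2 or 4 (adjusted p up to 0.0979). The other 5, Ccnb1, Cks2, Plk1, Aurka and Cdca3, averaged 2.25 to 7.17 CPM in hematogenous, 5.72 to 14.7 CPM in lymphatic and 2.67 to 7.93 CPM in tumor-free libraries. None passed a test in the main fit, whereas Cks2 and Cdca3 passed hematogenous over lymphatic with those 2 groups fitted alone.

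In the chromosomal passenger complex, which corrects faulty attachments of chromosomes, 0 of 4 genes passed in any comparison of the main fit. Group medians were 1.03, -0.17 and -1.36 for lymphatic over tumor free, hematogenous over tumor free and hematogenous over lymphatic. Incenp, its scaffold, had 40.7, 48.8, 44.3 and 51.5 CPM in hematogenous, 53.3, 56.7, 59.2 and 60.4 CPM in lymphatic and 58.9, 48.1, 56.1 and 50.8 CPM in tumor-free libraries. The lymphatic values were above the hematogenous ones, but the differences were small (log2 fold change 0.10, SE 0.143, adjusted p = 0.847 for lymphatic over tumor free, and log2 fold change -0.31, SE 0.142, adjusted p = 0.21 for hematogenous over lymphatic). The kinase Aurkb and its partners Birc5 and Cdca8 averaged 3.44 to 4.18 CPM in hematogenous, 9.69 to 10.9 CPM in lymphatic and 3.69 to 6.92 CPM in tumor-free libraries. Birc5 and Cdca8 passed hematogenous over lymphatic with those 2 groups fitted alone.

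Spindle checkpoint and APC/C genes also gave 0 calls of 7 in each comparison, with medians of 0.45, -0.50 and -1.19. Bub3, a checkpoint protein that also acts outside mitosis, had 45.7, 75.9, 66.7 and 77.4 CPM in hematogenous, 88.1, 97.5, 82.3 and 95.9 CPM in lymphatic and 78.5, 97.5, 82.7 and 92.8 CPM in tumor-free libraries. Lymphatic and tumor-free libraries overlapped (log2 fold change 0.05, SE 0.155, adjusted p = 0.941), and the sign of this difference turned with the scaling. The 4 hematogenous values were below the 8 others, but neither difference passed (log2 fold change -0.40, SE 0.156, adjusted p = 0.0868 against tumor free, and log2 fold change -0.45, SE 0.155, adjusted p = 0.0779 against lymphatic). With all libraries thinned to equal depth the gap to tumor free passed (adjusted p = 0.0408), and with the B cell covariate the gap to lymphatic did (0.0453). The checkpoint genes Bub1, Bub1b, Mad2l1 and Ttk, the APC/C activator Cdc20 and its ubiquitin-conjugating enzyme Ube2c averaged 1.11 to 14.0 CPM in hematogenous, 4.97 to 22.1 CPM in lymphatic and 2.07 to 16.1 CPM in tumor-free libraries. All 6 had negative log2 fold changes in hematogenous over tumor-free nodes, from -1.07 to -0.20, with a smallest adjusted p of 0.254. Bub1, Bub1b and Ube2c passed hematogenous over lymphatic with those 2 groups fitted alone.

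Of the 8 centromere and kinetochore genes, 2 rose in lymphatic over tumor-free nodes (2.32% of tested genes) and 1 in hematogenous over tumor-free nodes (9.52%). In hematogenous over lymphatic nodes 3 fell (5.92%), and the medians were 1.27, -0.44 and -1.72 in that order. Cenpa, the histone H3 variant that marks the centromere, had 35.6, 53.9, 38.7 and 47.4 CPM in hematogenous, 60.6, 56.4, 52.9 and 61.1 CPM in lymphatic and 33.3, 16.7, 22.7 and 18.0 CPM in tumor-free libraries. Every library of either tumor-bearing group was above all 4 tumor-free ones. Cenpa rose in lymphatic (log2 fold change 1.34, SE 0.208, adjusted p = 0.000687) and in hematogenous nodes (log2 fold change 0.95, SE 0.207, adjusted p = 0.00425), each over tumor free, and the difference between the tumor-bearing groups did not pass (log2 fold change -0.39, SE 0.202, adjusted p = 0.271). Nuf2, a subunit of the NDC80 complex that holds microtubules, had 0.851, 1.36, 1.78 and 1.46 CPM in hematogenous, 9.42, 10.4, 5.77 and 10.7 CPM in lymphatic and 0.468, 2.96, 0.852 and 3.31 CPM in tumor-free libraries. All lymphatic values were above the 8 others, by the largest fitted fold change of the 50 genes against tumor free, which narrowly missed the threshold (log2 fold change 2.29, SE 0.624, adjusted p = 0.0544). The gap to tumor free passed without tumor-free replicate 2 or 4 or hematogenous replicate 1 (adjusted p = 0.0498, 0.0418 and 0.0474) and in DESeq2 (0.00166). In hematogenous over lymphatic nodes Nuf2 fell (log2 fold change -2.72, SE 0.627, adjusted p = 0.0105).

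Cenpe, a kinetochore motor, had 5.86, 9.13, 5.96 and 9.13 CPM in hematogenous, 16.6, 16.5, 20.2 and 25.5 CPM in lymphatic and 12.6, 6.21, 7.20 and 7.77 CPM in tumor-free libraries, and the lymphatic values again stood above the 8 others. It rose in lymphatic over tumor-free nodes (log2 fold change 1.22, SE 0.310, adjusted p = 0.0367) and fell in hematogenous over lymphatic nodes (log2 fold change -1.39, SE 0.309, adjusted p = 0.00858). The rise was lost without hematogenous replicate 2, 3 or 4, any 1 of the 4 lymphatic libraries or tumor-free replicate 2, 3 or 4 (adjusted p up to 0.212), and under 7 of the other alternatives. The fall was lost when all libraries were thinned to equal depth (adjusted p = 0.101). Cenpf, a large kinetochore protein made in G2, had 3.40, 2.37, 2.79 and 7.67 CPM in hematogenous, 16.7, 13.6, 12.1 and 24.6 CPM in lymphatic and 11.9, 4.14, 2.30 and 8.64 CPM in tumor-free libraries. It fell in hematogenous over lymphatic nodes (log2 fold change -2.05, SE 0.485, adjusted p = 0.0124), a call lost without hematogenous replicate 3 or lymphatic replicate 4 (adjusted p up to 0.0643), and its difference between lymphatic and tumor-free nodes did not pass (log2 fold change 1.32, SE 0.477, adjusted p = 0.178). Ndc80, Spc24, Spc25 and Knl1, partners of Nuf2 in the outer kinetochore, averaged 1.06 to 10.9 CPM in hematogenous, 5.26 to 17.7 CPM in lymphatic and 1.43 to 11.8 CPM in tumor-free libraries. They passed no test in the main fit. Spc25 passed hematogenous over lymphatic with those 2 groups fitted alone and in DESeq2.

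Of the 8 kinesins, microtubule motors, 2 rose in lymphatic over tumor-free nodes (2.32% of tested genes) and 1 in hematogenous over tumor-free nodes (9.52%). In hematogenous over lymphatic nodes 3 fell (5.92%), and the medians were 1.06, -0.25 and -1.32 in that order. Kif11, the motor that pushes spindle poles apart, had 2.84, 11.6, 2.98 and 8.04 CPM in hematogenous, 26.5, 25.5, 25.1 and 38.5 CPM in lymphatic and 9.35, 4.29, 7.28 and 4.17 CPM in tumor-free libraries. The lowest lymphatic value was more than any of the 8 others, and the hematogenous and tumor-free ranges overlapped. Kif11 rose in lymphatic over tumor-free nodes (log2 fold change 2.19, SE 0.411, adjusted p = 0.00396) and fell in hematogenous over lymphatic nodes (log2 fold change -2.17, SE 0.406, adjusted p = 0.00287). It averaged 6.36 ± 4.25 CPM in hematogenous and 6.28 ± 2.51 CPM in tumor-free libraries (SD, n = 4 each; log2 fold change 0.02, SE 0.404, adjusted p = 0.984). Kif20b, a kinesin of late cytokinesis, followed another pattern, with 34.0, 49.9, 37.0 and 28.8 CPM in hematogenous, 37.3, 33.0, 48.9 and 46.7 CPM in lymphatic and 19.4, 15.8, 31.3 and 19.3 CPM in tumor-free libraries. It rose in both lymphatic (log2 fold change 0.94, SE 0.229, adjusted p = 0.0302) and hematogenous nodes (log2 fold change 0.79, SE 0.229, adjusted p = 0.023) over tumor free, and lymphatic but not hematogenous values stood clear of tumor-free replicate 3. The first call was lost without hematogenous replicate 3, lymphatic replicate 3 or 4 or tumor-free replicate 1, 2 or 4 (adjusted p up to 0.118), and the second without hematogenous replicate 2 or tumor-free replicate 2 (adjusted p up to 0.082).

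Kif20a, a kinesin of the midzone, had 1.61, 3.99, 3.30 and 7.60 CPM in hematogenous, 9.99, 11.3, 14.1 and 11.6 CPM in lymphatic and 7.25, 2.96, 5.07 and 6.04 CPM in tumor-free libraries, with lymphatic above all others. Kif15, a spindle motor that can stand in for Kif11, had 6.99, 7.52, 5.71 and 7.74 CPM in hematogenous, 14.3, 18.4, 13.6 and 23.0 CPM in lymphatic and 11.5, 2.81, 5.79 and 15.1 CPM in tumor-free libraries. Tumor-free replicate 4 lay within the lymphatic range of Kif15. Both fell in hematogenous over lymphatic nodes, Kif20a by 1.50 on the log2 scale (SE 0.447, adjusted p = 0.0402) and Kif15 by 1.31 (SE 0.394, adjusted p = 0.0424). The call of Kif20a was lost without hematogenous replicate 1, 2 or 3 or any 1 of the 4 lymphatic libraries (adjusted p up to 0.145), and that of Kif15 without any 1 of the 4 hematogenous libraries, lymphatic replicate 1, 2 or 4 or tumor-free replicate 1 (adjusted p up to 0.156). Kif23, Kif2c, Kif4 and Kif22 averaged 1.78 to 11.8 CPM in hematogenous, 6.36 to 22.5 CPM in lymphatic and 1.76 to 14.7 CPM in tumor-free libraries. They passed no test in the main fit. Kif23, Kif2c and Kif4 passed hematogenous over lymphatic with those 2 groups fitted alone. Kif2c passed lymphatic over tumor free without tumor-free replicate 1.

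**Figure D3:**
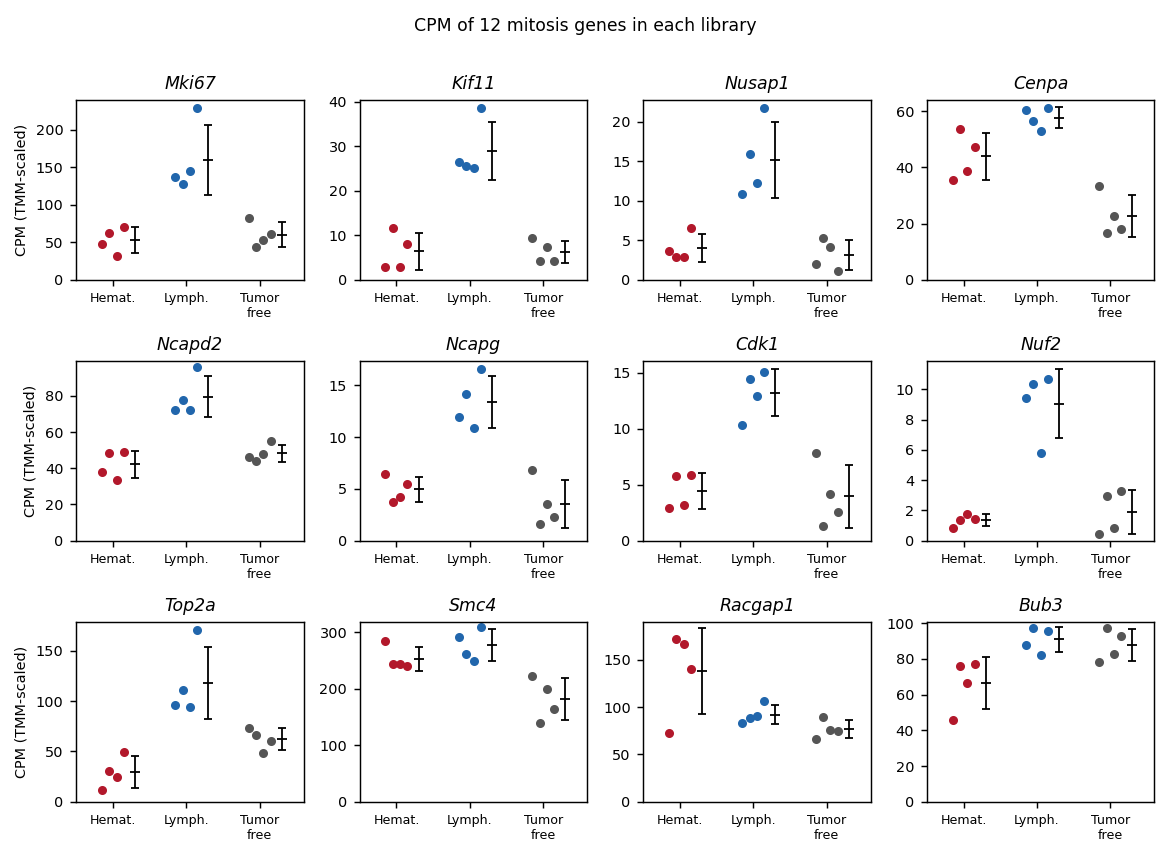
CPM of 12 mitosis genes in each library, with the 4 libraries of the hematogenous, lymphatic and tumor-free groups as points and the mean ± SD beside them. Mki67, Kif11, Nusap1, Ncapd2, Ncapg, Cdk1, Nuf2 and Top2a have all 4 lymphatic points above the 8 others, Cenpa and Smc4 are higher in both tumor-bearing groups, and Racgap1 is highest in 3 hematogenous libraries.

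The 4 spindle assembly genes gave 1 rise in lymphatic over tumor-free nodes (2.32% of tested genes) and 0 calls in hematogenous over tumor-free nodes. In hematogenous over lymphatic nodes 2 fell (5.92%), and the medians were 1.17, -0.07 and -1.37 in that order. Nusap1, which bundles microtubules near chromosomes, had 3.69, 2.83, 2.92 and 6.57 CPM in hematogenous, 10.8, 15.9, 12.3 and 21.7 CPM in lymphatic and 1.99, 5.33, 4.09 and 1.15 CPM in tumor-free libraries. The lymphatic libraries were above the 8 others. It rose in lymphatic over tumor-free nodes (log2 fold change 2.26, SE 0.476, adjusted p = 0.0101), a call lost without lymphatic replicate 4 (adjusted p = 0.0824), and fell in hematogenous over lymphatic nodes (log2 fold change -1.92, SE 0.465, adjusted p = 0.0139), a call lost without hematogenous replicate 3 or lymphatic replicate 2 or 4 (adjusted p up to 0.0662). Tpx2, which activates Aurora A kinase on the spindle, had 8.03, 8.73, 3.23 and 7.45 CPM in hematogenous, 14.7, 25.1, 18.3 and 25.3 CPM in lymphatic and 19.4, 2.37, 5.20 and 10.4 CPM in tumor-free libraries. Tumor-free replicate 1 reached the lymphatic range and replicate 2 was the lowest of all. Tpx2 fell in hematogenous over lymphatic nodes (log2 fold change -1.60, SE 0.462, adjusted p = 0.0342), a call lost without any 1 of the 4 hematogenous libraries or lymphatic replicate 2 or 4 (adjusted p up to 0.144), and lymphatic over tumor free passed without tumor-free replicate 1 (adjusted p = 0.0433). Hmmr and Dlgap5, both spindle proteins, averaged 3.40 to 8.84 CPM in hematogenous, 7.47 to 14.2 CPM in lymphatic and 3.35 to 10.0 CPM in tumor-free libraries.

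Of the 4 cytokinesis genes, 1 rose in lymphatic over tumor-free nodes (2.32% of tested genes) and 1 in hematogenous over tumor-free nodes (9.52%). In hematogenous over lymphatic nodes 0 fell (5.92%), and the medians were 0.41, 0.19 and -0.64 in that order. Racgap1, a GTPase-activating protein of the central spindle, had 72.8, 172, 167 and 139.9 CPM in hematogenous, 82.7, 88.1, 90.2 and 107 CPM in lymphatic and 66.4, 89.7, 76.1 and 74.3 CPM in tumor-free libraries. Hematogenous replicates 2, 3 and 4 were the highest of all 12 libraries, whereas hematogenous replicate 1 lay within the tumor-free range. Racgap1 rose in hematogenous over tumor-free nodes (log2 fold change 0.85, SE 0.197, adjusted p = 0.00627), and its difference from lymphatic nodes did not pass (log2 fold change 0.59, SE 0.194, adjusted p = 0.065). That difference passed without hematogenous replicate 1 (log2 fold change 0.84, adjusted p = 0.00181), without tumor-free replicate 2 (0.63, adjusted p = 0.0468), with scaling by library size alone (0.69, adjusted p = 0.0291) or by DESeq2's size factors (0.65, adjusted p = 0.0405) and in DESeq2 (adjusted p = 0.0212). Prc1, the bundler of midzone microtubules, had 15.8, 14.0, 10.1 and 11.6 CPM in hematogenous, 16.3, 22.0, 21.4 and 26.1 CPM in lymphatic and 10.8, 3.85, 12.0 and 9.21 CPM in tumor-free libraries, with lymphatic above all others by a small margin. It rose in lymphatic over tumor-free nodes (log2 fold change 1.25, SE 0.311, adjusted p = 0.0334), a call lost without hematogenous replicate 2 or 4, lymphatic replicate 2, 3 or 4 or tumor-free replicate 2 or 4 (adjusted p up to 0.14). The contractile-ring gene Anln and the cytokinesis regulator Ect2 averaged 2.85 to 4.68 CPM in hematogenous, 6.79 to 9.82 CPM in lymphatic and 5.08 to 7.45 CPM in tumor-free libraries. They passed no test in the main fit, whereas Ect2 passed hematogenous over lymphatic with no filter on low counts.

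Chromosome structure genes held the most calls for their number, with 4 of 7 up in lymphatic over tumor-free nodes (2.32% of tested genes). In hematogenous over tumor-free nodes 1 rose (9.52%) and 1 fell (6.87%), and in hematogenous over lymphatic nodes 5 fell (5.92%). The group medians were 0.93, -0.19 and -1.43 in that order, beside 1.27, -0.44 and -1.72 for the kinetochore genes. Mki67, Top2a, Smc2, Smc4 and Ncapd2 were among the 10 genes with a mean over 30 CPM. In lymphatic over tumor-free nodes the median SE was 0.186 for those 10 and 0.506 for the 40 others. Mki67, which encodes Ki-67, the coat of mitotic chromosomes and a marker of cycling cells, had 47.3, 62.1, 32.0 and 70.5 CPM in hematogenous, 137, 128, 145 and 229.7 CPM in lymphatic and 83.0, 43.5, 52.8 and 61.6 CPM in tumor-free libraries. All lymphatic libraries were above the 8 others. Mki67 rose in lymphatic over tumor-free nodes (log2 fold change 1.41, SE 0.236, adjusted p = 0.00153) and fell in hematogenous over lymphatic nodes (log2 fold change -1.59, SE 0.236, adjusted p = 0.000601), and its level in hematogenous and tumor-free nodes was not told apart (log2 fold change -0.18, SE 0.234, adjusted p = 0.655). Top2a, which untangles DNA before chromosomes part, had 12.1, 30.8, 24.7 and 49.8 CPM in hematogenous, 96.3, 111, 93.9 and 170.5 CPM in lymphatic and 73.1, 66.6, 47.9 and 60.6 CPM in tumor-free libraries. The lymphatic libraries were the highest, and only hematogenous replicate 4 reached the tumor-free range. Top2a fell in hematogenous over lymphatic (log2 fold change -2.00, SE 0.304, adjusted p = 0.00109) and over tumor-free nodes (log2 fold change -1.07, SE 0.301, adjusted p = 0.0214), the second a call lost without hematogenous replicate 2 or 3 or tumor-free replicate 1, 2 or 4 (adjusted p up to 0.0761). In lymphatic over tumor-free nodes it did not pass (log2 fold change 0.93, SE 0.296, adjusted p = 0.122), but did without hematogenous replicate 1 (adjusted p = 0.0305) or with those 2 groups fitted alone (0.0259).

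Condensin genes encode the ring that compacts chromosomes, with Smc2 and Smc4 shared by condensin I and II and Ncapd2, Ncapg and Ncaph in condensin I. Ncapd2 had 38.2, 48.3, 33.5 and 48.7 CPM in hematogenous, 71.9, 77.6, 72.0 and 95.9 CPM in lymphatic and 46.4, 43.8, 48.1 and 54.8 CPM in tumor-free libraries. Ncapg had 6.43, 3.79, 4.19 and 5.48 CPM in hematogenous, 11.9, 14.2, 10.8 and 16.6 CPM in lymphatic and 6.78, 1.63, 3.54 and 2.30 CPM in tumor-free libraries. In both, lymphatic libraries were above all others. Ncapd2 rose in lymphatic over tumor-free nodes (log2 fold change 0.72, SE 0.161, adjusted p = 0.0157) and fell in hematogenous over lymphatic nodes (log2 fold change -0.91, SE 0.161, adjusted p = 0.00208). Ncapg rose and fell likewise (log2 fold change 1.90, SE 0.436, adjusted p = 0.0187, and log2 fold change -1.43, SE 0.424, adjusted p = 0.0393). The rise of Ncapd2 was lost without lymphatic replicate 2 or 4 or tumor-free replicate 1 or 2 (adjusted p up to 0.129), that of Ncapg without lymphatic replicate 2 or 4 or tumor-free replicate 4 (adjusted p up to 0.107), and the fall of Ncapg without any 1 of the 4 hematogenous libraries or any 1 of the 4 lymphatic libraries (adjusted p up to 0.143).

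Smc4, the most abundant of the 50 mRNAs, had 284, 244, 243 and 239.5 CPM in hematogenous, 291, 260.4, 249 and 309 CPM in lymphatic and 222, 139, 199.5 and 165 CPM in tumor-free libraries, and tumor-free libraries were below all others. It rose in lymphatic (log2 fold change 0.61, SE 0.136, adjusted p = 0.0155) and in hematogenous nodes (log2 fold change 0.48, SE 0.136, adjusted p = 0.0212) over tumor free. Smc2 had 44.1, 38.8, 37.7 and 38.8 CPM in hematogenous, 62.3, 79.2, 59.5 and 90.8 CPM in lymphatic and 62.0, 38.2, 52.1 and 43.2 CPM in tumor-free libraries. Smc2 fell in hematogenous over lymphatic nodes (log2 fold change -0.87, SE 0.176, adjusted p = 0.0047), where the difference of its partner Smc4 did not pass (log2 fold change -0.13, SE 0.135, adjusted p = 0.651), and the difference of Smc2 between lymphatic and tumor-free nodes did not pass (log2 fold change 0.58, SE 0.176, adjusted p = 0.0931). The calls of Smc4 were lost without lymphatic replicate 4 or tumor-free replicate 2 or 4 (adjusted p up to 0.0993) in lymphatic and without hematogenous replicate 1 or tumor-free replicate 2 or 4 (adjusted p up to 0.0659) in hematogenous over tumor-free nodes. Ncaph averaged 4.69 CPM in hematogenous, 20.2 CPM in lymphatic and 6.85 CPM in tumor-free libraries (adjusted p = 0.284 for lymphatic over tumor free and 0.0579 for hematogenous over lymphatic). Whether Smc2 and Smc4 differ from each other in their response was not tested.

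Beside the 50 genes, 162 genes of 7 further lists of the cell cycle were tested, chosen for their roles and not among the 50. In lymphatic over tumor-free nodes 6 of the 162 (3.70%) rose and 0 fell, with a median log2 fold change of 0.42, beside the 2.32% and 0.418% of all tested genes. They were Rbl1, a pocket protein of the DREAM complex (log2 fold change 0.72, SE 0.160, adjusted p = 0.0155), Btg2, a brake on proliferation (log2 fold change 0.66, SE 0.124, adjusted p = 0.00402), Ube2s, a ubiquitin-conjugating enzyme of the APC/C (log2 fold change 1.28, SE 0.259, adjusted p = 0.00794), Aspm at spindle poles (log2 fold change 1.69, SE 0.451, adjusted p = 0.0477), the helicase subunit Mcm6 (log2 fold change 0.61, SE 0.144, adjusted p = 0.0224) and the polymerase subunit Pole (log2 fold change 0.72, SE 0.192, adjusted p = 0.0468). The call of Ube2s alone held under all 22 alternatives of scaling, filter, model, depth and libraries left out. That of Btg2 was lost with the mean log2 level of a list of B cell genes added to the model as a covariate (adjusted p = 0.0628), as were those of Rbl1, Aspm, Mcm6 and Pole. This covariate was far lower in tumor-free replicate 2 (-2.48) than in any other library (-0.57 to 1.67). Rbl1 was also lost without lymphatic replicate 2, 3 or 4 or tumor-free replicate 2 or 4 (adjusted p up to 0.0824) and Mcm6 without lymphatic replicate 2 or 4 or tumor-free replicate 2 or 4 (adjusted p up to 0.123). Aspm and Pole were each lost in 18 of the 22 alternatives, among them any 1 of the 4 lymphatic libraries left out. Among 17 cohesin genes none was called, the smallest p being that of Pds5b (log2 fold change 0.33, SE 0.116, adjusted p = 0.165), and among 29 further centromere genes none was, the smallest p being that of Cenpi (log2 fold change 1.91, SE 0.689, adjusted p = 0.179). In hematogenous over tumor-free nodes 8 (4.94%) rose and 12 (7.41%) fell, where 9.52% and 6.87% of all tested genes did, with a median of -0.11. Of these 20 calls, 5 held under all 22 alternatives, those of Cdkn1b, Nipbl, Mcm2, Mcm3 and Uhrf1, and 7 held without any single library. With the B cell covariate 6 of the 20 remained.

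By list, the hematogenous over tumor-free changes were as follows. Of 16 transcription regulators, E2f1, an activator of S-phase genes, fell (log2 fold change -1.84, SE 0.583, adjusted p = 0.0358) and so did its partner Tfdp1 (log2 fold change -0.77, SE 0.210, adjusted p = 0.0163). E2f1 was lost without hematogenous replicate 1, 2 or 3, lymphatic replicate 1 or tumor-free replicate 1 or 3 (adjusted p up to 0.122) and Tfdp1 without hematogenous replicate 3 or tumor-free replicate 2 (adjusted p up to 0.0633). Of 15 brakes and activators of cyclin-dependent kinases, the inhibitor Cdkn1b (p27) rose (log2 fold change 0.65, SE 0.136, adjusted p = 0.00312), as did the phosphatase Cdc25b (log2 fold change 0.67, SE 0.181, adjusted p = 0.0159), while the inhibitor Cdkn2d fell (log2 fold change -0.57, SE 0.161, adjusted p = 0.0194). Cdc25b was lost without hematogenous replicate 1 (adjusted p = 0.0649) and Cdkn2d without hematogenous replicate 1 or tumor-free replicate 2 (adjusted p up to 0.0678). Of the 17 cohesin genes 5 rose, where 9.52% of all tested genes did, the loaders Nipbl (log2 fold change 0.60, SE 0.136, adjusted p = 0.00569) and Mau2 (log2 fold change 0.57, SE 0.132, adjusted p = 0.00666) and the regulators Wapl, Pds5b and Pds5a, by log2 fold changes of 0.38, 0.39 and 0.36 (adjusted p = 0.0205, 0.0261 and 0.0368). With the B cell covariate Nipbl alone of these 5 was called. Wapl was also lost without hematogenous replicate 3 or lymphatic replicate 4 (adjusted p up to 0.0734), Pds5b without hematogenous replicate 2 or 3, lymphatic replicate 4 or tumor-free replicate 2 or 4 (adjusted p up to 0.0762) and Pds5a without hematogenous replicate 3 or 4, lymphatic replicate 1, 2 or 4 or tumor-free replicate 1 or 2 (adjusted p up to 0.0961). Pmf1, a kinetochore subunit, fell (log2 fold change -0.84, SE 0.243, adjusted p = 0.0233), a call lost without hematogenous replicate 1 or 3 or tumor-free replicate 2 or 4 (adjusted p up to 0.0935). None was called among 15 APC/C genes, Anapc4 having the smallest p (log2 fold change 0.31, SE 0.135, adjusted p = 0.136), or among 30 other mitotic genes, where it was the condensin II subunit Ncapd3 (log2 fold change 0.42, SE 0.147, adjusted p = 0.0539).

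DNA replication takes place in S phase, before G2 phase and mitosis, and its list held 40 genes. In hematogenous over tumor-free nodes 8 of the 40 fell, where 6.87% of all tested genes fell, and 1 rose, where 9.52% rose. The median log2 fold change of the 40 was -0.44. The helicase subunits Mcm3 (log2 fold change -0.85, SE 0.216, adjusted p = 0.0109), Mcm5 (log2 fold change -0.79, SE 0.208, adjusted p = 0.0138) and Mcm2 (log2 fold change -0.84, SE 0.224, adjusted p = 0.0149) fell, as did Uhrf1, which maintains DNA methylation (log2 fold change -1.44, SE 0.369, adjusted p = 0.0118), Gins1, a helicase partner (log2 fold change -1.78, SE 0.475, adjusted p = 0.0147), and Rrm1, a subunit of ribonucleotide reductase (log2 fold change -0.62, SE 0.177, adjusted p = 0.0208). The other calls were a fall of Cdc45 and of Ung and a rise of Tk1, thymidine kinase (0.83, adjusted p = 0.0263). Mcm2, Mcm3 and Uhrf1 held under every alternative, and with the B cell covariate Mcm5 (adjusted p = 0.0538), Rrm1 (0.118), Cdc45, Ung and Tk1 were lost. Mcm5 was lost without hematogenous replicate 3 (adjusted p = 0.052), Rrm1 without hematogenous replicate 1 or tumor-free replicate 1 (adjusted p up to 0.0695) and Tk1 without hematogenous replicate 4, lymphatic replicate 4 or tumor-free replicate 1 (adjusted p up to 0.105). Cdc45 was lost in 13 of the 22 alternatives and Ung in 12, in each case including 8 of the 12 that leave out a library. Gins1 was lost at equal depth (adjusted p = 0.115). The summed level of the 40 genes was 1045, 1154, 1076 and 1265 CPM in the hematogenous libraries, 1667, 2532, 1696 and 1875 CPM in the lymphatic ones and 1713, 1354, 1435 and 1448 CPM in the tumor-free ones. Hematogenous libraries were all below tumor-free ones in this sum, whereas in the sum of the 50 mitosis genes they overlapped. Lymphatic replicate 2 was highest for replication and lymphatic replicate 4 for mitosis.

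In hematogenous over lymphatic nodes 33 of the 162 genes (20.4%) fell and 1 (0.617%) rose, where 5.92% and 2.93% of all tested genes did, with a median of -0.61. The falls were 18 of 40 replication genes, 5 transcription regulators, 4 cohesin genes, 3 centromere genes and 3 other mitotic genes, and the rise was that of Cdkn1b (log2 fold change 0.54, SE 0.135, adjusted p = 0.0172). The regulators were Tfdp1, E2f2, E2f1, Rbl1 and E2f3, with log2 fold changes of -1.07, -1.31, -2.72, -0.56 and -0.91. The cohesin genes were Smc1a, Espl1, Sgo1 and Esco2, the centromere genes included Kntc1 and Ska1, and the other mitotic genes were Tacc3, Ncapg2 and Kif14. Those beyond the calls against tumor free were named after their values were seen. The 15 APC/C genes had 0 calls and a median of 0.08. Of the 34 calls 12 held under all 22 alternatives, those of 9 replication genes (Mcm2, Mcm3, Mcm5, Mcm6, Pcna, Cdc45, Rrm1, Rrm2 and Uhrf1) and of E2f1, E2f2 and Tfdp1. Each of the other 22 was lost without at least 1 library, among them those of the 4 cohesin genes and the rise of Cdkn1b, lost without lymphatic replicate 2 (adjusted p = 0.0697).

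Markers of other cells moved in part with the groups. A list of 18 B cell genes, the cell type of the lymphoma, summed to 651, 424, 480.4 and 485 CPM in hematogenous, 1092, 515, 534 and 723 CPM in lymphatic and 410.4, 397, 559 and 452 CPM in tumor-free libraries, and 0 of the 18 were at 0 throughout a group. In lymphatic over tumor-free nodes 17 of the 18 had a positive log2 fold change, where 58.3% of all tested genes did. By its median the list moved with the mitosis genes there, at 1.05 beside 0.96 for the 50 mitosis genes and 0.08 for all tested genes. It did so in hematogenous over lymphatic nodes as well, with 2 of 18 positive (49.5% of tested genes) and a median of -0.47, beside -1.32 for the mitosis genes. In hematogenous over tumor-free nodes 16 of 18 were positive (54.9% of tested genes) with a median of 0.42, beside -0.22. By library the sums ranked differently, with the B cell sum highest in lymphatic replicate 1 and the mitosis sum in lymphatic replicate 4. The B cell sums of lymphatic replicates 2 and 3 were below that of tumor-free replicate 3. Over tumor free, Pax5 alone of the 18 was called, higher in lymphatic (log2 fold change 1.44, SE 0.361, adjusted p = 0.0349) and in hematogenous nodes (log2 fold change 1.23, SE 0.361, adjusted p = 0.0244), and in hematogenous over lymphatic nodes Iglc2 alone, lower (log2 fold change -1.61, SE 0.484, adjusted p = 0.0418). Cd79a, a subunit of the B cell receptor, averaged 10.8 ± 3.48 CPM in hematogenous, 21.3 ± 11.8 CPM in lymphatic and 10.1 ± 5.80 CPM in tumor-free libraries (SD, n = 4 each), with no call. The list's mean log2 level, centered, was -2.48 in tumor-free replicate 2, the library of fewest gene counts, and -0.57 to 1.67 in the others. The B cell sum of that library, 397 CPM, was near the 410.4 CPM of tumor-free replicate 1. The part of that library in the calls lost with the covariate was not tested. With the B cell list's mean log2 level added to the model as a covariate, the median log2 fold change of the 50 genes in lymphatic over tumor-free nodes was 1.05. The calls then numbered 4, Cenpa, Kif11, Nusap1 and Mki67, and those of Ccna2, Cenpe, Kif20b, Prc1, Smc4, Ncapd2 and Ncapg were lost. With the covariate, 2 calls remained in hematogenous over tumor-free nodes, Cenpa and Racgap1, and 16 genes were called in hematogenous over lymphatic nodes. These 16 were not the same set as without it, with Ccna2, Cdk1 and Kif15 lost and Birc5, Bub3 and Cks2 gained.

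Of 6 germinal center B cell genes, 2 were at 0 in all hematogenous libraries, 1 in all lymphatic and 2 in all tumor-free libraries. Their sum was 52.2 to 64.3 CPM in hematogenous, 77.4 to 91.6 CPM in lymphatic and 59.3 to 87.8 CPM in tumor-free libraries. The 2 that were tested were both called. Bcl6 rose in lymphatic over tumor-free nodes (log2 fold change 0.70, SE 0.178, adjusted p = 0.0367) and fell in hematogenous over lymphatic nodes (log2 fold change -0.65, SE 0.177, adjusted p = 0.0266), and S1pr2 fell in hematogenous over tumor-free nodes (log2 fold change -1.22, SE 0.262, adjusted p = 0.00394). The 8 plasma cell genes summed to 123 to 163 CPM in hematogenous, 159.9 to 216 CPM in lymphatic and 127 to 159.9 CPM in tumor-free libraries. Of the 6 tested, Irf4 rose in lymphatic over tumor-free nodes (log2 fold change 2.75, SE 0.707, adjusted p = 0.0402) and Xbp1 fell in hematogenous over lymphatic nodes (log2 fold change -0.62, SE 0.176, adjusted p = 0.0329). The 10 T cell genes summed to 758, 971, 720.1 and 734 CPM in hematogenous, 822, 543, 511 and 699.7 CPM in lymphatic and 501, 566, 675 and 579 CPM in tumor-free libraries, and Cd3e, a subunit of the T cell receptor complex, averaged 101 ± 20.5 CPM in hematogenous, 52.8 ± 12.4 CPM in lymphatic and 40.6 ± 24.7 CPM in tumor-free libraries (SD, n = 4 each; log2 fold change 1.30, SE 0.358, adjusted p = 0.0226 for hematogenous over tumor free). In hematogenous over tumor-free nodes 9 of the 10 T cell genes had a positive log2 fold change (54.9% of tested genes), with a median of 0.77. There 3 of them rose (9.52% of tested genes), Cd3e included, and 1 rose in hematogenous over lymphatic nodes (2.93%). The 11 myeloid genes summed to 1333, 1075, 1072 and 1002 CPM in hematogenous, 1480.1, 1496, 1750.3 and 1453 CPM in lymphatic and 1214, 1262, 1179 and 1216 CPM in tumor-free libraries, and 10 were tested. In hematogenous over tumor-free nodes 7 of the 10 had a positive log2 fold change (54.9% of tested genes), with a median of 1.61. There 6 rose (9.52% of tested genes), Csf1r, Cd68, Adgre1, Cd14, S100a8 and S100a9. Csf1r, the receptor of a macrophage growth factor, averaged 19.7 ± 7.39 CPM in hematogenous, 9.27 ± 2.67 CPM in lymphatic and 6.01 ± 4.35 CPM in tumor-free libraries (SD, n = 4 each; log2 fold change 1.72, SE 0.441, adjusted p = 0.0116 for hematogenous over tumor free). Lyz2, lysozyme of myeloid cells, averaged 91.1 ± 42.5 CPM in hematogenous, 69.1 ± 31.9 CPM in lymphatic and 95.4 ± 24.8 CPM in tumor-free libraries (SD, n = 4 each), with no call. In hematogenous over lymphatic nodes S100a8 and S100a9 rose (2.93% of tested genes) and Itgax fell (5.92%). Itgax, which carried most of the summed level, averaged 700.2 ± 202 CPM in hematogenous, 1207 ± 177 CPM in lymphatic and 872 ± 78.0 CPM in tumor-free libraries (SD, n = 4 each; log2 fold change -0.79, SE 0.160, adjusted p = 0.00514 for hematogenous over lymphatic). In lymphatic over tumor-free nodes Cd68 rose (2.32% of tested genes). Called genes of these lists, where named beyond Cd3e, were named after their values were seen. The 7 erythroid genes summed to 0.851 to 54.4 CPM in hematogenous, 13.2 to 38.0 CPM in lymphatic and 0 to 14.4 CPM in tumor-free libraries. Of the 5 tested, 1 rose in lymphatic (2.32% of tested genes) and 2 in hematogenous nodes (9.52%), each over tumor free. The medians of the 5 were 3.43 and 2.89 in that order. The part of B cells and of these other cells in the mitosis results was not tested. The B cell covariate cannot decide it, since it moved in part with the groups and was far lowest in tumor-free replicate 2.

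**Figure D4:**
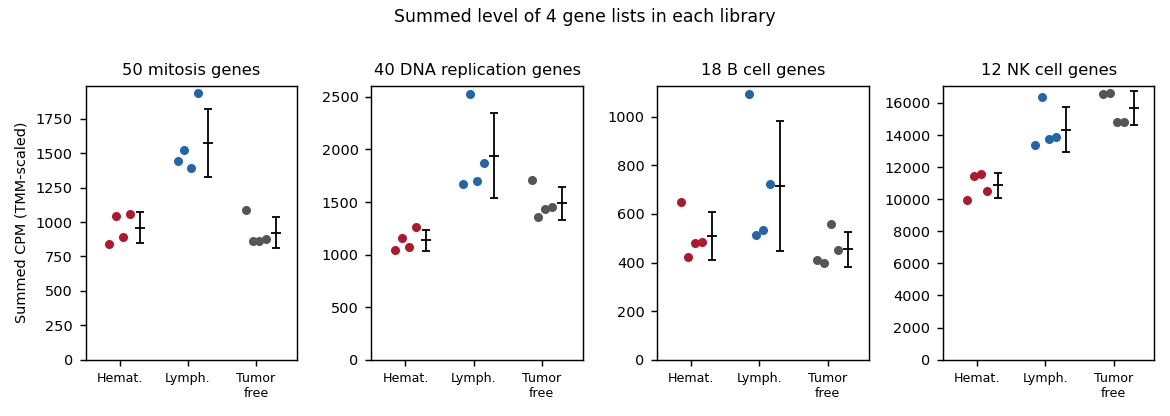
Summed CPM of 4 gene lists in each library, with the hematogenous, lymphatic and tumor-free libraries as points and the mean ± SD beside them. The 50 mitosis genes are highest in the 4 lymphatic libraries, the 40 replication genes are lowest in the hematogenous ones, the B cell sum is highest in lymphatic replicate 1, and the NK cell sum is lowest in the hematogenous libraries.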

How the data were processed

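RNA of NK cells sorted from mouse lymph nodes was sequenced in 12 libraries, 4 per group, grouped by title. Per the labels' protocols, poly(A) RNA was read as stranded single-end reads of 120 bp. The authors deposited raw read counts per gene. Tools named in the submitters' processing notes are HTSeq 2.0.2, HISAT2 2.1.0, Trimmomatic 0.39 and FastQC 0.11.9, with build GRCm39. Neither the annotation release nor the strand setting is given in the sources used here, so antisense and overlapping genes can share reads. The 5 summary lines of each file, which name no gene, were left out. Unassigned reads were 11.4% to 24.6% outside features, 1.55% to 2.12% ambiguous, 5.51% to 14.6% unaligned and 3.85% to 6.48% with several alignments. Symbols from GENCODE M21 matched 52073 of 56748 gene IDs.

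Counts were fitted with edgeR 4.0.16 in R 4.3.3 (TMM, filterByExpr by group, robust quasi-likelihood F test with group as the only factor, 9 residual degrees of freedom, 16016 genes). Benjamini-Hochberg adjustment ran over all tested genes, and a gene with an adjusted p under 0.05 was called. The SE of a log2 fold change was its size divided by the square root of F. CPM per kilobase used merged exon length of GENCODE M21. Depth was 6654215 to 43494812 gene counts per library, and no 2 libraries of a group agreed within sampling noise. Replicate numbers did not pair the samples. The code was tested on simulated data. Alternatives were other scalings, filters, DESeq2 1.42.0, 2 groups alone, a replicate block, equal depth, a B cell covariate, no robust estimation and each library left out.

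The members and all lists were chosen with earlier results of these data known. Values are given one by one for members called in any comparison, the member of highest CPM in each role, and Mki67, Top2a, Cdk1 and Bub3, 23 in all. For the other pathway lists the rule named called genes of the tumor-bearing groups over tumor free (at most 6 per list) or else the gene of smallest p. Cdc45, Ung and Tk1 of the replication list were named beyond that limit, after their values were seen. One further centromere gene is not reported here.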

Additional observations from a re-analysis of the deposited data

Results flagged for a closer look

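Within each group of 4 libraries, the levels of the 23 genes described one by one were checked for a library far from the other 3 (69 groups in all), a check that flags about 1 in 20 groups by chance. It flagged 4. Lymphatic replicate 4 stood apart in Mki67, at 229.7 CPM where the other lymphatic libraries had 128 to 145 CPM, and in Kif11, at 38.5 CPM where the others had 25.1 to 26.5 CPM. Hematogenous replicate 1 stood apart in Smc4, at 284 CPM where the others had 239.5 to 244 CPM, and in Smc2, at 44.1 CPM where the others had 37.7 to 38.8 CPM. The calls of Mki67 and Kif11 held without lymphatic replicate 4, and that of Smc4 in hematogenous over tumor-free nodes was lost without hematogenous replicate 1.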

How the results depend on the processing

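For each comparison, 22 alternatives were run. The count of the 50 mitosis genes called in lymphatic over tumor-free nodes was 11, with 4 under the B cell covariate, 7 at equal depth and 3 to 15 with 1 library left out. In hematogenous over tumor-free nodes it was 5, with 2 under the covariate and 2 to 5 with 1 library left out. In hematogenous over lymphatic nodes it was 16, with 28 when the 2 groups were fitted alone, 9 at equal depth and 7 to 19 with 1 library left out. Over all tested genes, lymphatic over tumor free gave 439 calls, 181 under the covariate, 861 in DESeq2 and 255 to 634 with 1 library left out. Hematogenous over tumor free gave 2625, 1182 under the covariate and 1760 to 3202 with 1 left out, and hematogenous over lymphatic gave 1417, 2169 in DESeq2 and 620 to 1572 with 1 left out. Scaling moved the split of higher and lower calls over all genes, to 295 and 108 with library size alone and 308 and 100 with size factors in lymphatic over tumor free (372 and 67 with TMM), and to 744 and 590 and 624 and 693 in hematogenous over lymphatic (469 and 948 with TMM). DESeq2 called 13, 5 and 20 of the 50 genes in the 3 comparisons. Replicate numbers did not pair the samples (correlations of -0.07 to 0.06, and 4 of 12 same-numbered pairs the best match), and with a replicate block 9, 5 and 18 of the 50 genes were called. Some differences that were not called changed sign. Bub3 in lymphatic over tumor-free nodes was -0.0221 with size factors, -0.0349 with library size alone, -0.0014 at equal depth, -0.022 in DESeq2 and -0.0325 to 0.11 with 1 library left out. Kif11 in hematogenous over tumor-free nodes was -0.14 with the replicate block, -0.0188 with the covariate, -0.0511 at equal depth and -0.45 to 0.27 with 1 left out. With 1 left out, hematogenous over tumor free spanned -0.11 to 0.70 for Cdk1, -0.28 to 0.10 for Cenpe, -0.75 to 0.0065 for Nuf2, -0.60 to 0.0646 for Kif15, -0.75 to 0.21 for Tpx2, -0.005 to 0.68 for Nusap1 and -0.35 to 0.0181 for Mki67, and hematogenous over lymphatic -0.27 to 0.0027 for Kif20b. No called gene that was named changed direction. The cause of these changes was not tested. Depth limits the precision of the 50 genes, whose median count in a library was 54 to 117 in hematogenous, 220.0 to 545.5 in lymphatic and 44.5 to 133.5 in tumor-free libraries.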
